A study of Mus musculus with 6 samples.

Results

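The genes described here are those of the autophagy machinery and the transcription factors of the TFEB family, followed on microarrays of RAW 264.7 cells, a mouse macrophage line that grew out of a leukemia, after addition of mica fine particles (MFP), a ground aluminosilicate mineral. The list holds 38 genes, taken by symbol. A gene was kept as a member where at least 1 of its probes was detected (detection p under 0.05) on both arrays of 1 or more time points, and its brightest probe was followed. This left 33 members, of 9268 named genes that the same rule kept out of 19057 named genes on the array. Of the 33 members, 30 were detected on all 6 arrays and entered the test, among 9984 features in all. Atg4c, Calcoco1 and Mitf were detected on only some arrays and were read with the looser filter. The probes of Gabarapl2, Pik3r4, Rb1cc1 and Tfeb were not above background on any of the 6 arrays, and no probe was named for Optn in the annotation used here.

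Cells collected at 12 h or 48 h with 100 µg/mL MFP were compared with cells collected at 0 h, with 2 arrays for each time. All cells were RAW 264.7 cultured in the same low-serum RPMI medium. The labels give the MFP dose for the 0 h cells too, and the study treats those cells as nontreated. No array held untreated cells cultured for 12 h or 48 h, so the particles and the time in culture cannot be told apart. Whether both arrays of a time came from separate flasks is not given in the sources used here, so the p-values below measure only how these arrays spread, and that spread may be technical. Between 16176 and 17155 of the 45281 probes were detected on an array, and median signals lay between 102 and 116. The authors' signals had no background subtracted (the lowest value on each array was 66.9 to 73.1), so folds of dim probes are understated. Of the 9 macrophage markers with a probe, all 9 were detected, while no probe of the markers fixed for T cells, B cells, fibroblasts or neutrophils was, and of the epithelial markers only Cdh1 was. In RNA from whole cultures, a change in the share of cells that express a gene and a change in RNA per cell cannot be told apart.

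Autophagy encloses cytoplasm or particles in a double membrane and delivers it to the lysosome. The ULK kinase complex starts the process, the class III PI3-kinase complex marks the membrane with the lipid PI3P, and 2 ubiquitin-like conjugation systems attach proteins of the Atg8 family (LC3 and GABARAP) to it. Cargo receptors bind ubiquitinated cargo and Atg8 proteins at once, and tethering factors bring the finished autophagosome to the lysosome. In macrophages the conjugation machinery also acts on single membranes around ingested particles, in LC3-associated phagocytosis. TFEB, TFE3 and MITF are related basic helix-loop-helix factors, known to activate lysosomal and autophagy genes when the kinase mTORC1 is inactive and they enter the nucleus.

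At 48 h, 20 of the 30 tested members (66.7%) were higher than at 0 h and 3 (10.0%) were lower, with 7 not past the test. Over all 9984 features the same test called 26.3% higher and 26.4% lower (limma on log2 quantile-normalized intensity, Benjamini-Hochberg adjusted p under 0.05). The median log2 fold change was 0.52 over the tested members and 0.01 over all features. At least 2-fold higher were 5 members, Sqstm1, Gabarapl1, Map1lc3a, Atg12 and Epg5, against 5.35% of all features. These 5 are all on probes that the study listed as altered on these same arrays, and are no independent evidence of a direction. Both 48 h arrays lay above both 0 h arrays for 21 of 30 members and below both for 3, against 38% and 37.4% of all features.

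At 12 h, 6 of the 30 tested members (20.0%) were higher than at 0 h, against 10.4% of all features. They were Sqstm1, Atg13, Tax1bp1, Gabarap, Vps11 and Atg12, with log2 fold changes of 0.75, 0.59, 0.50, 0.47, 0.37 and 0.35. No member was lower by limma's adjusted p, and 0 were lower at an unadjusted p under 0.05, at which 9 were higher, against 16.8% lower and 16.7% higher among all features. By the adjusted p, 8.85% of all features were lower. The median log2 fold change at 12 h was 0.09 over the members and -0.02 over all features. All 6 genes that passed at 12 h also passed at 48 h, in a comparison that shares the same 0 h arrays. With 0 h replicate 2 left out, 2 members were higher, and with 0 h replicate 1, 12 h replicate 1 or 12 h replicate 2 left out, 3 were. Of the 6 calls, that of Sqstm1 held with any one array left out. Atg12 and Vps11 lost theirs without any single 0 h or 12 h array (adjusted p up to 0.17 and 0.15), Atg13 without 0 h replicate 1 (0.053), Gabarap without 0 h replicate 2 or 12 h replicate 2 (up to 0.079), and Tax1bp1 without 0 h replicate 2 or 12 h replicate 1 (up to 0.072).

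**Figure D1:**
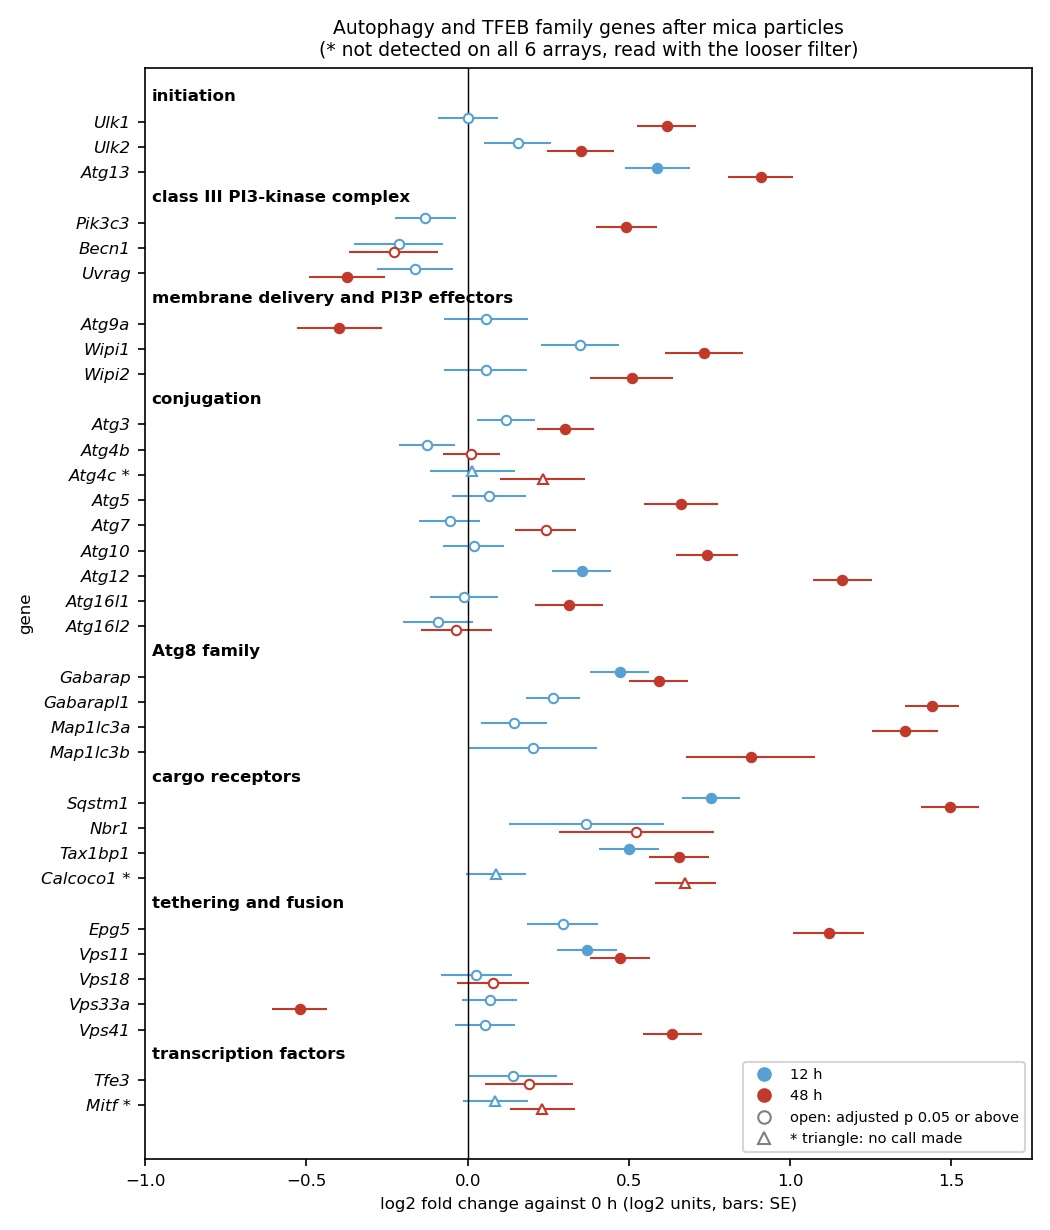
Log2 fold change of each detected member at 12 h (blue) and 48 h (red) against 0 h, in log2 units, with bars for the standard error and genes grouped by role. Filled points passed the test (adjusted p under 0.05), and triangles with a star mark the 3 genes read with the looser filter, for which no call is drawn; at 48 h 20 tested members lie filled to the right of 0 and 3, Uvrag, Atg9a and Vps33a, filled to the left.

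A direct test of 48 h against 12 h called 16 members higher (53.3%) and 2 lower (6.67%), against 19.9% and 20.2% of all features. The median log2 difference was 0.31 over the members and 0.02 over all features. By more than 2-fold, Map1lc3a and Gabarapl1 were higher at 48 h than at 12 h, against 2.4% of all features. The most frequent course among the 30 members was a pass at 48 h against both 0 h and 12 h without a pass at 12 h, with 14 genes. How many of all features took this course was not counted, so it is not read as particular to the members. Sqstm1, Atg12 and Atg13 passed all 3 comparisons. Gabarap, Tax1bp1 and Vps11 passed at 12 h and at 48 h but not between those times. For Atg13, Atg16l1 and Atg7 the difference between 48 h and 12 h was lost under 5 of the 6 omissions of 1 array (adjusted p up to 0.18, 0.19 and 0.22). It held for Atg13 and Atg16l1 without 48 h replicate 1 and for Atg7 without 12 h replicate 2.

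**Figure D2:**
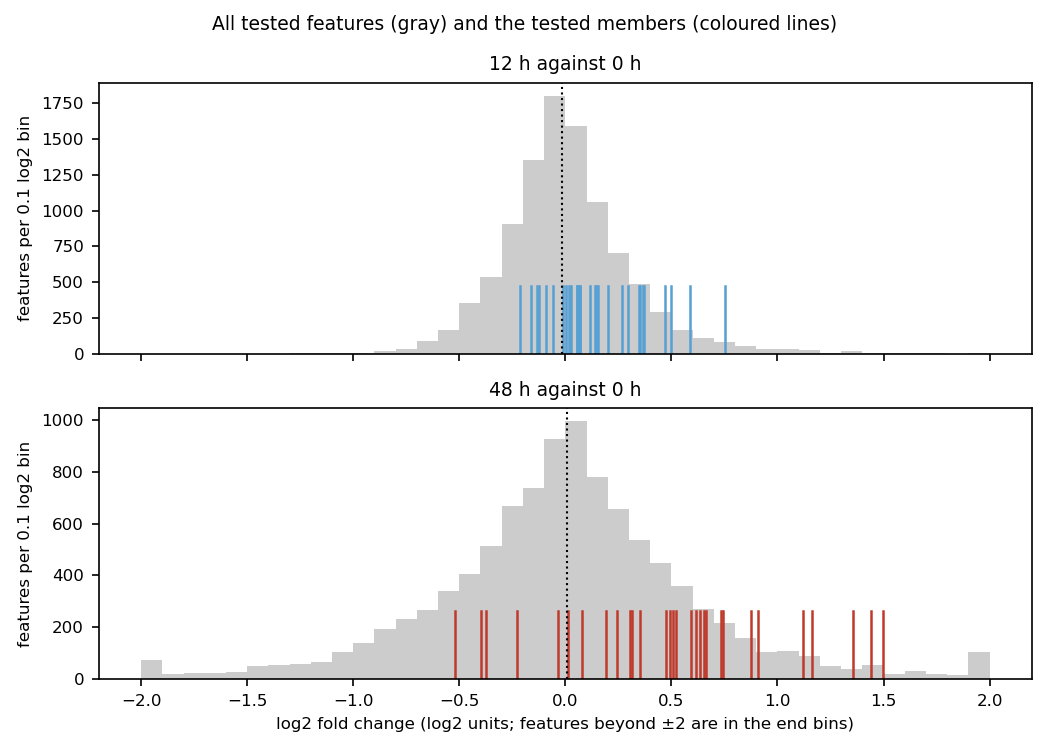
Distribution of the log2 fold changes of all 9984 tested features (gray bars, number of features per bin) at 12 h and at 48 h against 0 h, with the 30 tested members as coloured lines and the median of all features dotted. The members' median is 0.09 at 12 h and 0.52 at 48 h, and at 48 h they run between -0.52 (Vps33a) and 1.5 (Sqstm1).

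The deposited table of normalized values shows that the authors normalized the arrays in 2 sets of 3, each with 1 array of every time. Set 1 held 0 h replicate 1, 12 h replicate 2 and 48 h replicate 2, and set 2 held the other 3 arrays. The labels do not say what the sets were. For all 23 members that passed at 48 h, the 48 h arrays did not overlap the 0 h arrays. Their direction was therefore the same within each set by necessity, which is no further support. With the set as a block, 22 members were higher and 4 lower at 48 h, against 33.8% and 33.6% of all features, and 10 were higher and 1 (Becn1) lower at 12 h, against 19.6% and 20.4% of all features. All 6 members called at 12 h, 23 at 48 h and 18 between those times kept their calls with this block. The members gained were Nbr1 and Atg7 (higher) and Becn1 (lower) at 48 h, and Gabarapl1, Wipi1, Nbr1 and Epg5 (higher) and Becn1 (lower) at 12 h. The deposited table itself, tested without that block, called 3 members higher at 48 h, namely Sqstm1, Gabarapl1 and Map1lc3a, and none at 12 h.

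The Atg8 family was higher at 48 h in all 4 tested members, against 26.3% of all features, and their median was 1.12 in log2. Gabarapl2, also of this family, was not detected. These are the proteins that are joined to the autophagosome membrane and bind cargo receptors. Values below are normalized intensities, replicate 1 before replicate 2. Gabarapl1 gave 1338 and 1299 (0 h), 1598 and 1570 (12 h) and 3511 and 3640 (48 h). Its 48 h values were 2.71-fold those at 0 h (log2 fold change 1.44 ± 0.08 SE, adjusted p = 6.0e-06), and no array of the 3 times overlapped another time. The change was 1.44 in each array set.

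Map1lc3a, which encodes LC3A, read 175 and 153 on the 0 h arrays, 175 and 188 on the 12 h arrays and 436 and 404 on the 48 h arrays. The 0 h and 12 h arrays lay side by side, and both 48 h arrays stood above them at 2.56-fold the 0 h level (log2 1.35 ± 0.10 SE, adjusted p = 2.0e-05). This is a dim probe, and with a background correction its log2 fold change at 48 h was 2.11.

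Map1lc3b encodes LC3B, the form most used as an autophagosome marker. It gave 198 and 308 (0 h), 292 and 276 (12 h) and 401 and 514 (48 h). Both 48 h arrays were above all others, but the 0 h arrays lay far apart, which gave a wide error (log2 0.88 ± 0.20 SE, 1.84-fold, adjusted p = 0.0066). Its change was 1.37 within one array set and 0.38 within the other, and 0.56 without 0 h replicate 1 (adjusted p = 0.032). Under scaling to the 75th percentile the call was lost (adjusted p = 0.0503).

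Gabarap itself read 7255 and 6699 on the 0 h arrays, 9357 and 9995 on the 12 h arrays and 10284 and 10741 on the 48 h arrays. Most of its change was present by 12 h (1.39-fold against 0 h, adjusted p = 0.011), and 48 h stood at 1.51-fold (adjusted p = 0.00087). The 48 h arrays were not separated from 12 h by the test (log2 0.12 ± 0.09 SE, adjusted p = 0.33). Thus within this family Gabarapl1 and Map1lc3a were higher at 48 h than at 12 h by 2.26-fold and 2.32-fold, while for Gabarap the difference between those times did not pass.

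**Figure D3:**
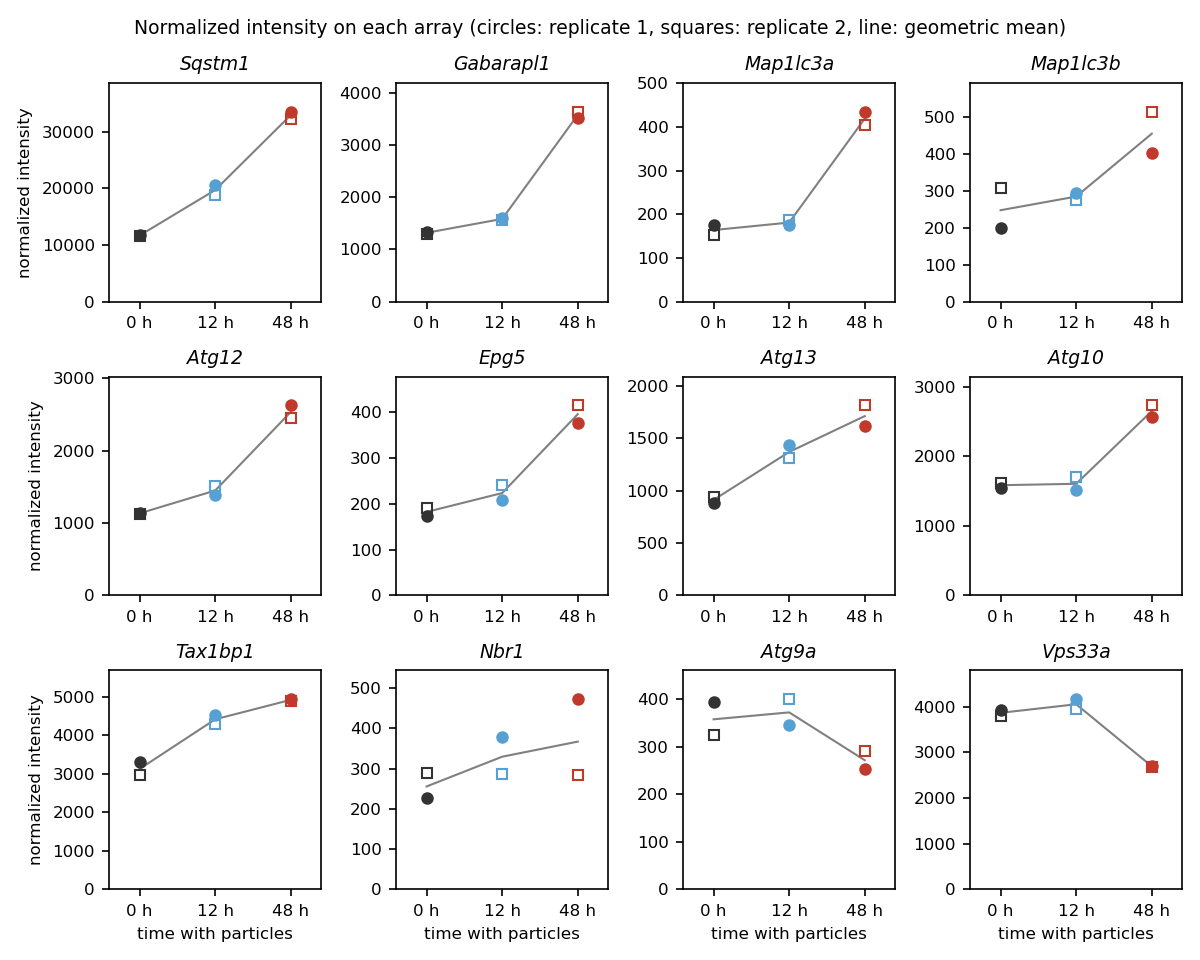
Normalized intensity (linear scale) of 12 members on each array at 0, 12 and 48 h, with circles for replicate 1, squares for replicate 2 and a line through the geometric means. Sqstm1 and Atg12 are higher at each later time, Gabarapl1, Map1lc3a and Atg10 lie mainly higher at 48 h, Tax1bp1 has most of its change by 12 h, Nbr1 shows a wide spread at 48 h, and Atg9a and Vps33a are lower at 48 h.

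Among the cargo receptors, Sqstm1 and Tax1bp1 passed at both times. Sqstm1 encodes p62, which links ubiquitinated cargo to LC3 and is itself degraded by autophagy. It gave 11767 and 11563 (0 h), 20615 and 18797 (12 h) and 33528 and 32286 (48 h). Each time lay clear of the one before, at 1.69-fold at 12 h (log2 0.75 ± 0.09 SE, adjusted p = 0.0015) and 2.82-fold at 48 h (log2 1.5 ± 0.09 SE, adjusted p = 6.9e-06) against 0 h. The difference between 48 h and 12 h also passed (1.67-fold, adjusted p = 0.00042).

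Tax1bp1, a ubiquitin-binding receptor that also restrains NF-kappaB signalling, read 3305 and 2961 on the 0 h arrays, 4534 and 4310 on the 12 h arrays and 4950 and 4904 on the 48 h arrays. It was 1.41-fold at 12 h and 1.58-fold at 48 h against 0 h (adjusted p = 0.0095 and 0.00055), with log2 0.16 ± 0.09 SE between 48 h and 12 h (adjusted p = 0.22). Nbr1, a receptor built like p62, gave 227 and 288 (0 h), 379 and 286 (12 h) and 473 and 285 (48 h). Pooled over the sets the times overlapped, and the 48 h difference of 0.52 ± 0.24 SE did not pass (adjusted p = 0.10). Within the sets Nbr1 was higher at 48 h by 0.33 and 0.72, and with the set block it passed at 48 h (adjusted p = 8.8e-05) and at 12 h (0.0044). It also passed at 48 h with the mean of its probes (0.64, adjusted p = 0.023) and without 48 h replicate 2 (0.89, adjusted p = 0.0045), while without 48 h replicate 1 it stood at 0.16 (adjusted p = 0.54).

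Calcoco1, a receptor for autophagy of the endoplasmic reticulum, read 126 and 123 on the 0 h arrays, 139 and 126 on the 12 h arrays and 190 and 207 on the 48 h arrays on the looser filter. It was not above background on either 0 h array and was on both 48 h arrays, so it entered only through the time at which it was high. Its 48 h level was at least 1.54-fold that at 0 h, which is given as a description with no test. It is not counted among the 20.

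All 3 tested genes of the initiation complex were higher at 48 h, against 26.3% of all features. Atg13, the subunit that mTORC1 phosphorylates to hold the complex inactive, gave 880 and 942 (0 h), 1431 and 1307 (12 h) and 1612 and 1813 (48 h). Its log2 change was 0.59 ± 0.10 SE at 12 h (adjusted p = 0.0068), and it was 1.88-fold at 48 h (log2 0.91 ± 0.10 SE, adjusted p = 0.00015) against 0 h. Ulk1, the kinase of the complex, read 434 and 406 on the 0 h arrays, 403 and 438 on the 12 h arrays and 627 and 660 on the 48 h arrays. Its 12 h arrays lay just outside the pair of 0 h arrays, one on either side, and 48 h was 1.53-fold the 0 h level (log2 0.62 ± 0.09 SE, adjusted p = 0.00073). Ulk2, the related kinase, changed by 0.35 ± 0.10 SE (adjusted p = 0.021). That call was lost without 0 h replicate 2 or 48 h replicate 2 (adjusted p up to 0.13).

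In the class III PI3-kinase complex the tested members did not move one way. Pik3c3, the catalytic lipid kinase VPS34, gave 1676 and 1649 (0 h), 1523 and 1512 (12 h) and 2194 and 2493 (48 h). It was higher at 48 h than at 0 h (1.41-fold, adjusted p = 0.0027) and than at 12 h (1.54-fold, adjusted p = 0.0013). Uvrag, a partner of Beclin 1 in endosome and autophagosome maturation, was lower at 48 h (log2 -0.37 ± 0.12 SE, adjusted p = 0.028). The call on Uvrag was lost without 0 h replicate 2 or 48 h replicate 2 (adjusted p up to 0.18). Becn1, the scaffold Beclin 1, had a log2 fold change of -0.23 at 48 h (95% interval -0.55 to 0.09, adjusted p = 0.20). Blocking on the array set, the same decrease in Becn1 passed at 48 h (adjusted p = 0.014).

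Of the genes of membrane delivery and PI3P binding, Wipi1 and Wipi2 were higher and Atg9a was lower at 48 h. Wipi1, a PI3P-binding propeller protein of the forming membrane, read 187 and 162 on the 0 h arrays, 201 and 245 on the 12 h arrays and 284 and 295 on the 48 h arrays. Both 48 h arrays lay above all others (1.66-fold the 0 h level, log2 0.73 ± 0.12 SE, adjusted p = 0.0012), and with a background correction the log2 fold change was 1.22. Wipi2, which recruits ATG16L1, changed by 0.51 ± 0.13 SE (adjusted p = 0.010), a call lost without 0 h replicate 1 or 48 h replicate 1 (adjusted p up to 0.069). Atg9a, the membrane protein whose vesicles seed the autophagosome, gave 395 and 324 (0 h), 346 and 401 (12 h) and 253 and 292 (48 h). It was lower by a log2 value of -0.40 ± 0.13 SE against 0 h (adjusted p = 0.033), lost without 0 h replicate 1 or 48 h replicate 1 (adjusted p up to 0.20).

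In the conjugation group, 5 of 8 tested genes passed at 48 h, all higher, with a median of 0.31 in log2 over the 8. Of all features, 26.3% were higher and 26.4% lower. The leading gene was Atg12, the ubiquitin-like protein that is joined to ATG5. It read 1143 and 1121 on the 0 h arrays, 1388 and 1509 on the 12 h arrays and 2625 and 2443 on the 48 h arrays. The times did not overlap, at 1.28-fold at 12 h (adjusted p = 0.031) and 2.24-fold at 48 h (log2 1.16 ± 0.09 SE, adjusted p = 2.5e-05) against 0 h. Atg10, the E2-like enzyme that joins ATG12 to ATG5, gave 1552 and 1621 (0 h), 1520 and 1699 (12 h) and 2572 and 2738 (48 h). Here 0 h and 12 h overlapped and 48 h lay above both (1.67-fold the 0 h level, adjusted p = 0.00032). Atg5, the acceptor of ATG12, read 1960 and 2181 on the 0 h arrays, 2374 and 1977 on the 12 h arrays and 3170 and 3377 on the 48 h arrays. It showed the same course at 1.58-fold (adjusted p = 0.0016).

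The other conjugation genes differed less. Atg16l1, which directs the ATG12-ATG5 conjugate to the membrane, and Atg3, the E2-like enzyme for LC3, changed at 48 h by 0.31 ± 0.10 and 0.30 ± 0.09 SE in log2 (adjusted p = 0.034 and 0.021). The call on Atg3 was lost without any one of the 0 h and 48 h arrays (adjusted p up to 0.10) and that on Atg16l1 without either 0 h array or 48 h replicate 2 (adjusted p up to 0.18). Atg7, the E1-like enzyme that serves both conjugation systems, had a log2 difference of 0.24 at 48 h against 0 h that did not pass (adjusted p = 0.063) and of 0.30 against 12 h that did (adjusted p = 0.037). With the set block the 48 h difference of Atg7 against 0 h passed (adjusted p = 0.012), at 0.25 and 0.23 within the sets. The LC3 protease gene Atg4b stood at 0.01 (95% interval -0.19 to 0.21) and Atg16l2, a relative of Atg16l1, at -0.04 (95% interval -0.29 to 0.22). Atg4c, another such protease, read 157 and 122 on the 0 h arrays, 133 and 147 on the 12 h arrays and 154 and 171 on the 48 h arrays with the looser filter. Its times overlapped and its difference at 48 h, 0.23 in log2, did not pass (adjusted p = 0.18). With the set block it did (adjusted p = 0.020), at 0.13 and 0.34 within the sets. Atg4c was above background on 1 of the 2 arrays at 0 h and on both at 12 h and 48 h. It thus entered through the later times, and this p-value is no support for a rise.

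Of the 5 genes of tethering and fusion, 3 were higher and 1 was lower at 48 h, against 26.3% and 26.4% of all features. Epg5, a tether that joins autophagosomes to late endosomes and lysosomes, gave 173 and 191 (0 h), 208 and 240 (12 h) and 377 and 415 (48 h). The times did not overlap, and the 48 h level was 2.17-fold that at 0 h (log2 1.12 ± 0.11 SE, adjusted p = 7.2e-05), or 1.70 in log2 with a background correction. Vps41, a subunit of the HOPS tethering complex, read 514 and 514 on the 0 h arrays, 502 and 566 on the 12 h arrays and 797 and 798 on the 48 h arrays. Only the 48 h arrays stood apart (1.55-fold the 0 h level, adjusted p = 0.00064).

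Vps33a, the HOPS subunit that binds SNARE proteins, went the other way. It gave 3928 and 3810 (0 h), 4173 and 3944 (12 h) and 2709 and 2681 (48 h). Both 48 h arrays were below all others, by a log2 value of -0.52 ± 0.09 SE against 0 h (adjusted p = 0.0012) and -0.59 against 12 h (adjusted p = 0.0010). The core subunits Vps11 and Vps18 showed log2 fold changes at 48 h of 0.47 ± 0.09 SE (adjusted p = 0.0032) and 0.08 ± 0.11 SE (adjusted p = 0.59). The 4 measured HOPS subunits of the list thus held 2 calls higher and 1 lower, where 26.3% and 26.4% of all features were called.

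For 12 genes more than 1 probe was detected, which allowed a second reading of the same gene. Over these genes, 10 of 13 further probes had the same sign at 48 h as the brightest one. In a fit of every detected probe on its own, all probes of Ulk1, Atg5, Wipi1 and Vps33a passed in the same direction, with further probes at 0.75, 0.56, 0.53 and -0.42 in log2. The second probe of Nbr1 passed at 0.75, where its brightest probe did not. For 5 genes that passed on the brightest probe no other probe did. The further probe stood at 0.26 for Atg10, 0.24 for Vps41, 0.04 for Ulk2 and -0.06 for Vps11, and the others of Wipi2 at 0.46 and -0.02. Except for the 0.46 probe of Wipi2 these were dim, which understates the size of a fold. Those of Vps11 and the dim one of Wipi2 had the sign opposite to the brightest probe. Whether dimness lies behind the smaller values was not tested. Raw signals were 153 to 217 for Atg10, 175 to 239 for Vps41 and 130 to 190 for Ulk2. They were 126 to 143 for Vps11 and 120 to 146 for Wipi2. The second probe of Wipi1, which passed, was dim too (120 to 197). Which transcripts each probe reads was not tested.

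**Figure D4:**
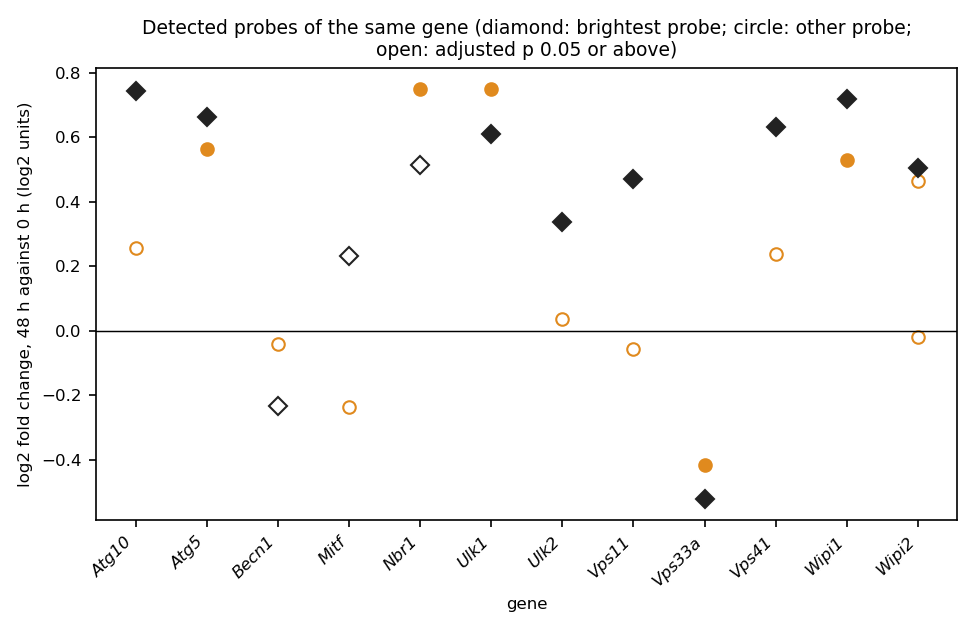
Log2 fold change at 48 h against 0 h (log2 units) for every detected probe of the 12 genes with more than 1, with diamonds for the brightest probe, circles for the others and filled symbols for adjusted p under 0.05. Ulk1, Atg5, Wipi1 and Vps33a have all symbols filled on one side of 0, whereas Vps11, Wipi2 and Mitf have probes on both sides.

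Of the family's 3 transcription factors only Tfe3 entered the test at RNA level, and it passed in none of the comparisons. Calls on Tfe3, and on Mitf with the looser filter, depended on an array or on the set block. Neither of the probes of Tfeb was above background on any array (raw signals 94.7 to 129). Tfe3 read 361 and 479 on the 0 h arrays, 436 and 482 on the 12 h arrays and 485 and 464 on the 48 h arrays. Its times overlapped, with a log2 difference of 0.19 at 48 h (95% interval -0.12 to 0.50, adjusted p = 0.27). Without 0 h replicate 2 it was 0.39 and passed (adjusted p = 0.036), and without 0 h replicate 1 it was -0.01 (adjusted p = 0.94). Mitf gave 124 and 140 (0 h), 132 and 147 (12 h) and 151 and 158 (48 h) on its brightest probe, with a log2 difference of 0.23 at 48 h (adjusted p = 0.090). With the set block it passed (adjusted p = 0.027), at 0.35 and 0.11 within the sets. This probe was above background on 1 of the 2 arrays at 0 h and on both at 12 h and 48 h. Mitf thus entered through the later times, and this p-value is no support for a rise. Its second probe stood at -0.24. These probes read RNA only, and the place or phosphorylation of the proteins was not measured.

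TFEB family proteins bind E-box sequences whose centre is CACGTG, so the members' promoters were searched for it. The windows ran from 250 bases before to 50 after the RefSeq start (GRCm38.p6), and 30 of the 38 genes had one. CACGTG, which reads the same on both strands, was present in the windows of 4 genes (13.3%), against 8.09% of 27025 genes with a window. The longer forms TCACGTG or CACGTGA, each the reverse complement of the other, were in 3 (10.0% against 4.29%), and TCACGTGA, which contains both, in 2 (6.67% against 1.12%). The 4 genes were Atg3, Atg5, Atg7 and Vps33a. The window of Atg7 belongs to a start inside the annotated gene, and is not shown. For the other 3 the stretches of 60 bases around the matches are shown on the strand of the gene, with CACGTG in capitals, because they hold the matches nearest to the members' starts. They lie before the RefSeq start used for the window of Atg3 (chr16:45158715-45158774, plus strand), Atg5 (chr10:44268279-44268338, plus strand) and Vps33a (chr5:123573016-123573075, minus strand). For Atg5 and Vps33a another annotated start lies within the stretch.
Atg3: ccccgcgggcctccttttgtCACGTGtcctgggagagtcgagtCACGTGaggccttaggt
Atg5: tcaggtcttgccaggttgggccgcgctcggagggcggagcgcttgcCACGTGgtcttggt
Vps33a: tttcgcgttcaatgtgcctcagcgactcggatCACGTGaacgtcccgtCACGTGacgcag

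The 4 genes with a match include 2 that were higher at 48 h (Atg3 and Atg5), 1 that did not pass (Atg7) and 1 that was lower (Vps33a). In Vps33a both matches had the form TCACGTGA, and in Atg3 1 of 2. The 5 members that were at least 2-fold higher held no match in a window or had no window here. A match is a string of letters in a window and not a measured binding site.

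Other autophagy genes, a list of 36 of which 31 were tested, had 15 higher and 3 lower at 48 h. Their median was 0.26 in log2, and over all features 26.3% were higher and 26.4% lower. Against 10.4% and 8.85% of all features, 4 of this list were higher and 0 lower at 12 h. The largest changes at 48 h were in Tecpr1, an autophagosome tether (2.24 ± 0.12 SE in log2, adjusted p = 3.1e-06), Snap29, the SNARE of autophagosome fusion (1.29 ± 0.10), Vmp1, a lipid scramblase needed for autophagosome formation (1.04 ± 0.12), Wdr45, a PI3P-binding relative of Wipi1 (0.88 ± 0.15), and Phb2, an inner mitochondrial membrane protein that acts as a mitophagy receptor (-0.88 ± 0.11).

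Of the regulators of mTORC1 and AMPK, 29 of 36 were tested, and 13 were higher and 4 lower at 48 h. Their median was 0.10, and over all features 26.3% were higher and 26.4% lower. At 12 h 6 of the 29 were higher and 1 was lower, against 10.4% and 8.85% of all features. Rragc, a Rag GTPase that recruits mTORC1 and TFEB to the lysosome, changed by 1.19 ± 0.09 SE, and Fnip1, a partner of folliculin, by 1.12 ± 0.09. Ddit4, a stress-induced inhibitor of mTORC1, changed by 1.39 ± 0.21 SE at 12 h and 1.12 ± 0.21 at 48 h against 0 h, with overlapping arrays and no call between 48 h and 12 h (log2 -0.27 ± 0.21, adjusted p = 0.36). Sesn2, a leucine-binding inhibitor of mTORC1 signalling, changed by 1.10 ± 0.32, and Mcoln1, the lysosomal calcium channel, by 0.81 ± 0.09.

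Known lysosomal targets of TFEB had 18 of 20 tested genes higher and none lower at 48 h by limma, with a median of 0.83. Over all features 26.3% were higher and 26.4% lower. At 12 h 10 of the 20 were higher and 0 lower, against 10.4% and 8.85% of all features. The study picked many of these targets on these arrays, and they are no independent evidence of a direction. Hexa, a hexosaminidase subunit, changed by 1.52 ± 0.09 SE in log2, Neu1, a sialidase, by 1.47 ± 0.09, and Naglu, another lysosomal glycosidase, by 1.33 ± 0.17. Of the macrophage markers, 6 of 9 were higher and 2 lower at 48 h, against the same 26.3% and 26.4% of all features. The summed intensity of the 9 was 83630 and 85426 on the 48 h arrays against 49278 and 48182 on the 0 h arrays. At 12 h that sum was 48515 and 48374. The higher sum lay in Lyz2 and Cd63, the brightest of them, since the other 7 summed to 15210 and 16182 on the 48 h arrays against 17791 and 17645 on the 0 h arrays. Of those 7, however, Adgre1, Fcgr1, Mpeg1 and Itgam were also higher at 48 h (log2 1.70, 1.68, 1.28 and 0.84). The 2 lower markers were Csf1r (log2 -0.88) and Cd14 (-0.48). Cd14 made up most of the sum of the 7, with 13333 and 13741 on the 0 h arrays and 9345 and 10090 on the 48 h arrays. The part of this shift in the members' changes was not tested.

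**Figure D5:**
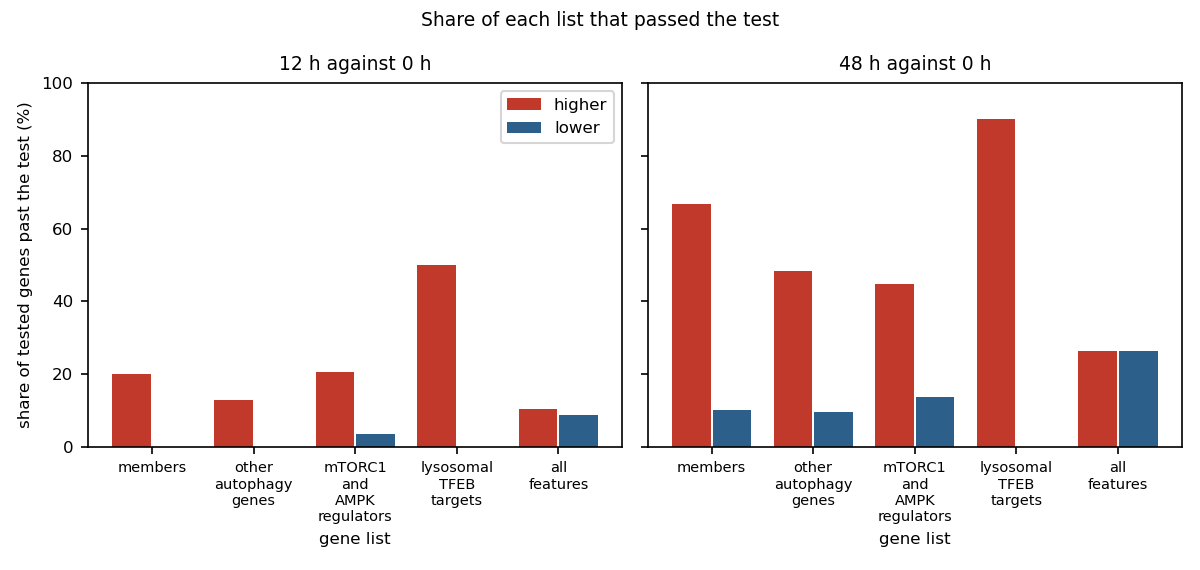
Share of tested genes (percent) that passed the test as higher (red) or lower (blue) at 12 h and at 48 h against 0 h, for the 30 members, the 3 other lists and all features. At 48 h, 66.7% of the members were higher, against 26.3% of all features, and 10.0% were lower, against 26.4%.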

How the data were processed

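RNA of 6 RAW 264.7 cultures or aliquots was hybridized to Illumina mouse whole-genome beadchips. The authors exported non-normalized probe intensity and a detection p-value per probe with GenomeStudio, and deposited these together with log2 quantile-normalized values. The processing notes also name R 3.0.2. The aligner of probes to genes is not given in the sources used here, and names came from GEO's platform table, updated through gene IDs.

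From the intensities, the 14091 probes detected (p under 0.05) on all 6 arrays were taken to log2, quantile normalized and reduced to the brightest probe per gene, with unnamed probes kept singly. limma 3.58.1 in R 4.3.3 fitted 1 mean per time (3 residual degrees of freedom), with eBayes and Benjamini-Hochberg adjustment over 9984 features. The fit was tried on simulated intensities of 9984 features (48 h against 0 h). Of genes changed 1.5-fold 63 of 67 passed, as did 67 of 67 at 2.5-fold and 66 of 66 at 4-fold. So did 20 unchanged features. The simulated noise was drawn from the fit's own spreads, was independent for each array and held no array sets. Far fewer features were changed than passed on the real arrays. Neither the recovery nor the error rate on the real arrays can therefore be read from the simulation. The members and lists were chosen with earlier results of these data known. Each listed gene is named; per-array values are given for members passing any comparison at 1.5-fold, for the transcription factors and for partly detected members, and up to 5 leading genes stand for each other list.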

Additional observations from a re-analysis of the deposited data

Results flagged for a closer look

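For 18 members the change at 48 h differed from that at 12 h by the direct limma test of 48 h against 12 h, which is the difference of both changes from the shared 0 h arrays. They were 16 higher and 2 lower, and the same test called 19.9% of all features higher and 20.2% lower. In the Atg8 family the log2 difference was 1.21 for Map1lc3a, 1.17 for Gabarapl1 and 0.68 for Map1lc3b. In the conjugation group it was 0.81 for Atg12, 0.72 for Atg10, 0.60 for Atg5, 0.33 for Atg16l1 and 0.30 for Atg7. It was 0.74 for the cargo receptor gene Sqstm1. For Epg5 and Vps41, of tethering and fusion, it was 0.82 and 0.58. For the initiation genes Ulk1 and Atg13 it was 0.62 and 0.32, for Pik3c3 it was 0.62, and for Wipi2 and Wipi1 it was 0.45 and 0.38. Only Atg9a and Vps33a were lower at 48 h than at 12 h, by -0.46 and -0.59.

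The fitted changes at 12 h and 48 h had opposite signs for 5 of these genes, Pik3c3, Atg7, Atg16l1, Atg9a and Vps33a, with none of their 12 h values past the test. Omissions of single arrays ended the difference for 7 genes, while with the array set as a block all 18 kept it. Map1lc3b lost it without either 12 h array or 48 h replicate 2 (adjusted p up to 0.11), Wipi1 without 12 h replicate 1 or either 48 h array (up to 0.20), Wipi2 without either 12 h array or 48 h replicate 1 (up to 0.13) and Atg9a without 12 h replicate 2 or 48 h replicate 1 (up to 0.13). Atg13, Atg16l1 and Atg7 lost it under 5 omissions each (up to 0.18, 0.19 and 0.22).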

How the results depend on the processing

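Over 1449 re-computed gene results, 1293 stayed on the same side of the threshold, 132 lost the call and 24 gained it. None that passed in either run reversed its sign. Results that passed in neither run were not held to this, and some changed sign, such as Ulk1 at 12 h (log2 -0.06 to 0.06 over the omissions). Sqstm1, Gabarapl1 and Map1lc3a kept the 48 h call under every alternative run. With the deposited table and no set block, 0 members were higher at 12 h, 3 higher and 0 lower at 48 h, and 0 higher and 0 lower for 48 h against 12 h. Over all features that table gave 0 and 0 calls (higher and lower) at 12 h, 310 and 305 at 48 h, and 80 and 115 between them. Its values were normalized in 2 separate sets, and with the set as a block 10 members were higher and 1 lower at 12 h, with 1915 and 1953 of all features. The set block on the intensities also gave 10 and 1 members at 12 h, with 1957 and 2035 of all features. Scaling to the 75th percentile gave 2 members higher at 12 h, with 400 and 252 of all features, and 1303 features lower for 48 h against 12 h.

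Equal replicate numbers shared an array set at 12 h and 48 h, while at 0 h the numbers were swapped. Correlations of replicate differences were -0.553 for 0 h with 12 h, -0.564 for 0 h with 48 h, and 0.648 for the later times. A block on the replicate number therefore did not follow the sets. The replicate block gave 1 member lower at 48 h and 553 features lower at 12 h. Leaving out 1 array gave 2 to 6 members higher at 12 h, with 412 to 1010 features higher and 254 to 860 lower. At 48 h against 0 h it gave 17 to 20 members higher and 2 to 3 lower, with 2091 to 2577 and 2126 to 2583 of all features. For 48 h against 12 h it gave 10 to 13 members higher and 1 to 2 lower, with 1380 to 1880 and 1509 to 1912 of all features. A lone array was then assumed to vary like the others. With 2 arrays a time, the number of arrays limits the precision.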
